A study of Mus musculus with 12 samples.

Results

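Immediate early genes were examined in arrays of granule neural progenitors (GNPs), whole cerebellum and medulloblastomas (MBs) of mice. The 10 members were Fos, Fosb, Jun, Junb, Atf3, Egr1, Egr2, Egr3, Npas4 and Arc. They were grouped as genes high in progenitor preparations and were thus chosen by their levels in GNPs against the other samples, so those differences are given below as a description and without a test. They were measured by 13 probe sets, of 45101 on the array, and by 10 gene values, of 18193 in all. A gene value was the mean log2 level over probe sets assigned to a single gene.

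The samples were 2 GNP samples, 2 samples of whole cerebellum and MBs of 8 mice, 12 in all. The MBs arose in Nestin-Cre p53-/- Xrcc4 c/- mice, with Xrcc4 c/c in the mice of MB_1206 and MB_706, where the number is that of the mouse. In these animals the Nestin promoter drives Cre in neural progenitors, which lack p53 and lose XRCC4, a factor of non-homologous end joining. The normal tissue came from control animals described as matched in age and genotype. Exact ages, strain and the way the GNPs were isolated were not given in the sources used here. The labels call the MBs tumor tissue, whereas 6 of the 8 (MB_630, MB_794, MB_1197, MB_1206, MB_1207 and MB_1224) also appear among cultured MB cells in the methods of the study. Whether the RNA came from tissue or from cultured cells was therefore not settled. All GNP samples were progenitor preparations and no other sample was, so preparation, cell type and any difference in age cannot be told apart. Nothing says whether the samples of a group were processed separately, and p-values measure the spread between these samples. The limma p-values below use a spread shared over the 3 groups. Most of it comes from the 8 MBs, also where GNPs are compared with cerebellum.

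Immediate early genes are transcribed soon after a cell receives a stimulus, without the need for newly made protein. Growth factors, membrane depolarization and stress reach them through the MAP kinases and calcium signaling, which act on factors already bound at their promoters, such as CREB and SRF with its ELK partners. Most encode transcription factors, among them the FOS and JUN proteins that pair as AP-1, and the EGR zinc finger proteins. In neurons they are widely used as a record of recent activity.

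The arrays were alike in breadth, with 42.2% to 43.4% of probe sets above a log2 level of 5. The lowest level on every array was 2.20, and a gene within 0.1 of it is called at the floor. A difference against a group at the floor is a lower bound. Profiles correlated at r = 0.994 between the GNP samples, 0.995 between the cerebellum samples and 0.972 to 0.992 among MBs. In MB_706 the 3′ control probe sets exceeded the 5′ ones by 2.93. This difference was between 0.56 and 0.82 for the remaining MBs, 0.48 and 0.52 for cerebellum, and 0.15 and 0.23 for GNPs. It thus separated the GNP samples from all others, as did the levels of Fos, Atf3, Npas4 and Egr1 below, and its part in them was not tested. The tests of the members in MBs are also given without MB_706. Atoh1, which marks granule progenitors, had a mean level of 5.95 in GNPs, 2.76 in cerebellum and 11.95 in MBs. Mki67, a gene of cycling cells, had 9.02, 2.29 and 12.31. Gli1, a target of SHH signaling, was at 2.39 and 2.20 in the GNP samples, below the cerebellum and below every MB. Of 8 progenitor markers, GNPs exceeded cerebellum for 3 (Atoh1, Mki67 and Barhl1) and were lower for 1 (Gli1). The other 4 (Gli2, Ptch1, Zic1 and Pax6) did not pass, so 3 of the 8 markers set GNPs above cerebellum and the SHH targets were not among them.

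Promoter windows of the members were searched for the kinds of site known from rapid induction, and those of the 3 genes whose GNP levels stood above every other sample are printed here. Each runs from 250 bases before the transcription start up to it, 5′ to 3′ on the strand of the gene, as given by RefSeq for GRCm38.p6. Capitals mark matches to the motifs named after them. The windows lie at chr12:85473640-85473889 (plus strand) for Fos, chr19:4989972-4990221 (minus strand) for Npas4 and chr1:191183334-191183583 (minus strand) for Atf3.
Fos: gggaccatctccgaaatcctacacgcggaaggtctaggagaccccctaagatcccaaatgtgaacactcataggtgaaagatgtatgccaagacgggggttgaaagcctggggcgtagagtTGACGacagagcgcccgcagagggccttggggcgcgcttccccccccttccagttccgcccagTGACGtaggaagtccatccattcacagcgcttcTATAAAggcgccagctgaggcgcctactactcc
Npas4: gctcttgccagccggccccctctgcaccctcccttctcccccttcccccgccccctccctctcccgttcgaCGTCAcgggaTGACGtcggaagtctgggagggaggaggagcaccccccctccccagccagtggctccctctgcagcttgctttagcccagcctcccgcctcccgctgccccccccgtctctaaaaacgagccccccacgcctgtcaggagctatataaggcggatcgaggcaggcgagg
Atf3: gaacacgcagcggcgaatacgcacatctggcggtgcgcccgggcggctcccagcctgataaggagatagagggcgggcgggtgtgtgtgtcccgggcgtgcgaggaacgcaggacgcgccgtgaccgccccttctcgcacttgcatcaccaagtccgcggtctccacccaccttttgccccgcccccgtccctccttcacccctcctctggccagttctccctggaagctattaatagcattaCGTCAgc

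The TATA box was searched as TATAAA, the cyclic AMP response element (CRE, bound by CREB) as TGACGTCA, its half-site as TGACG, the AP-1 site as TGACTCA and the EGR site as GCGTGGGCG. The CArG box bound by SRF was searched by its consensus. All were searched on both strands except the TATA box, which was searched on the strand of the gene, and distances are from the first base of a match to the start. Every full CRE also counts as a half-site. The Fos window held a TATA box 33 bases before the start and CRE half-sites 129 and 66 bases before it. The Npas4 window held half-sites at 179 and 169 bases, close together and on opposite strands. The Atf3 window held 1, at 7 bases. Half-sites were present in 17.8% of all 32851 windows, and TATA boxes in 7.59%. Full CREs were found in 1.55% of windows, AP-1 sites in 4.46%, EGR sites in 0.536% and CArG boxes in 1.47%, and none of these 4 matched in the 3 windows shown. Sequence upstream of the windows was not searched for any gene. Whether a CArG box or another of these sites lies farther from the start of Fos, Npas4 or Atf3 was thus not tested. Of the other members with a window, Fosb had a half-site at 60 bases, Junb had 1 at 106, and the Jun window had no match. Of the 5 Egr2 windows, 4 had a CArG box and 3 had CRE half-sites. The 3 windows with half-sites overlap one another, so there were only 2 distinct sites of each kind. Windows were found for 7 of the 10 members. A match describes the letters and does not show that a factor binds there.

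Fos, Npas4 and Atf3 had both GNP samples above all 10 other samples. These were 3 of the 10 members, and 11.7% of all genes had that order. Egr1 had both GNP samples below all others, which was 1 of 10 members against 8.68% of all genes. The other 6 members overlapped with cerebellum or MBs, or were at the floor. The description as high in progenitor preparations thus fitted 3 of the 10 members. Because the choice of members rests on these levels, nothing is read from the counts.

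**Figure D1:**
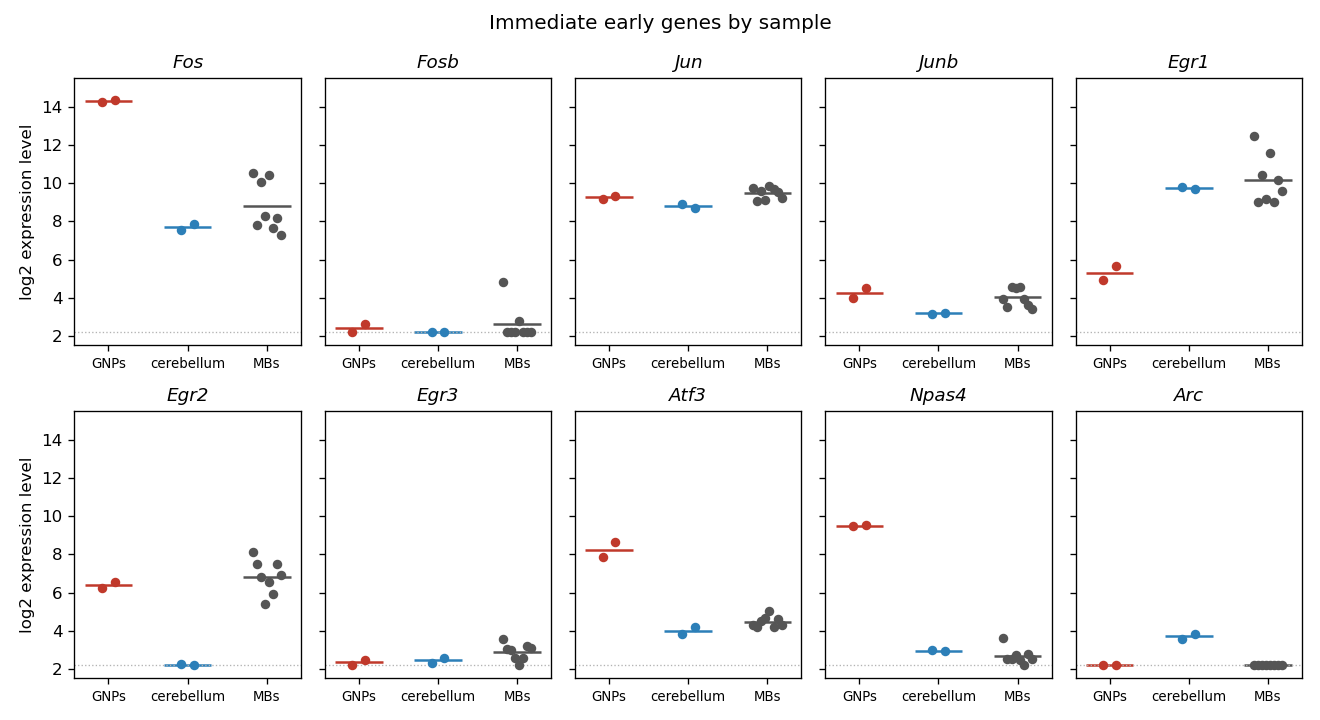
Log2 expression level (vertical axis) of each of the 10 immediate early genes in the 2 GNP samples, the 2 cerebellum samples and the 8 MBs, with 1 point per sample, a bar at the group mean and a dotted line at the floor of 2.20. The GNP points stand above all others for Fos, Atf3 and Npas4 and below all others for Egr1.

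Among the AP-1 genes, Fos had log2 levels of 14.27 and 14.37 in the GNP samples, 7.56 and 7.88 in cerebellum, and 7.27 to 10.55 in the MBs with a median of 8.24. FOS is the inducible partner of JUN in AP-1. The GNP mean of 14.32 ± 0.07 (SD, n = 2) was 6.60 above cerebellum (7.72 ± 0.23, n = 2) and 5.54 above the MBs (8.78 ± 1.34, n = 8). The gap to the highest MB was larger than the whole range of the MBs. In bulk RNA, fewer cells with a transcript and less of it per cell cannot be told apart.

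Atf3, a stress-induced factor of the ATF and CREB family that also pairs with JUN proteins, was at 7.85 and 8.65 in GNPs. It was at 3.80 and 4.21 in cerebellum and at 4.21 to 5.01 in the MBs, with a median of 4.42. GNPs were separate from both other groups, while cerebellum and MBs met at 4.21. The mean of 8.25 ± 0.56 (SD, n = 2) in GNPs was 4.24 above cerebellum and 3.77 above the MBs.

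The remaining AP-1 genes did not share this pattern. Jun, the main partner of FOS, was at 9.20 and 9.33 in GNPs, 8.91 and 8.71 in cerebellum and 9.09 to 9.85 in MBs, so the GNP samples lay within the MB range. Its 2 probe sets had GNP means of 9.49 and 9.03 and cerebellum means of 8.88 and 8.74, in the same order. Their MB means were 9.45 and 9.52, so they disagreed on the order of GNPs and MBs. Junb, a partner that often moderates JUN, was at 3.96 and 4.49 in GNPs, within the MB range of 3.42 to 4.57, and at 3.13 and 3.22 in cerebellum. Fosb was at the floor in 1 GNP sample, in both cerebellum samples and in 6 of 8 MBs, and its highest level was 4.80 in MB_1187. The GNP mean was 0.46 above cerebellum for Jun and 1.05 above it for Junb.

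Egr1 went the other way from Fos. This zinc finger factor, like Fos, is a standard marker of recent stimulation. It was at 4.94 and 5.67 in GNPs, 9.78 and 9.71 in cerebellum, and 9.00 to 12.47 in MBs with a median of 9.91. The GNP mean of 5.31 ± 0.51 (SD, n = 2) lay below the cerebellum mean of 9.74 ± 0.05 (n = 2), a difference of -4.44, and below the MB mean of 10.18 ± 1.28 (n = 8), a difference of -4.88. GNPs and the other groups did not overlap, and cerebellum lay inside the MB range. A single probe set measured Egr1, as was also the case for Fos, Atf3, Npas4, Fosb, Junb and Arc.

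Egr2, best known for myelination and hindbrain patterning, separated cerebellum from the rest. It was at 6.26 and 6.55 in GNPs, at the floor with 2.23 and 2.20 in cerebellum, and at 5.40 to 8.13 in MBs with a median of 6.85. The GNP samples lay within the MB range, and the GNP mean was at least 4.19 above the cerebellum mean. Both Egr2 probe sets showed this, with cerebellum means of 2.20 and 2.23. Egr3 was low throughout, at 2.21 and 2.46 in GNPs, 2.33 and 2.55 in cerebellum and 2.21 to 3.54 in MBs. One of its probe sets was at the floor in every sample, so its gene value understates the spread of the other, which ran from 2.22 to 4.88.

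Npas4, a factor induced by calcium entry in neurons, was at 9.48 and 9.54 in GNPs. It was at 2.97 and 2.92 in cerebellum and at 2.20 to 3.62 in MBs, with a median of 2.50. The GNP mean of 9.51 ± 0.05 (SD, n = 2) was 6.57 above cerebellum and 6.85 above MBs, and cerebellum lay inside the MB range. Arc, which encodes a synaptic protein that regulates glutamate receptor traffic, was at the floor in both GNP samples and in all 8 MBs, and at 3.58 and 3.85 in cerebellum. The GNP preparations thus held high Npas4 with Arc at the floor.

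The mean of the 10 members was 6.26 and 6.58 in the GNP samples, 4.65 and 4.74 in cerebellum, and 4.95 to 6.33 in MBs. MB_1187 was thus within the GNP values on this mean. Over the 12 samples, and among 9899 other genes above a log2 level of 5 in at least 2 samples, the mean was followed most closely by Usp11 (Pearson r = 0.944), Pih1d1 (0.930), Atxn7l3b (0.921), Ddit4 (0.919), Tsen34 (0.911), Mblac1 (0.903), Tmem234 (0.887) and Vasp (0.884). These correlations are a description over samples that share 3 groups. Vasp, an actin regulator, had mean levels of 9.35 in GNPs, 6.90 in cerebellum and 8.14 in MBs.

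MBs against cerebellum is the comparison that did not enter the choice of members, and it was tested with limma across all 18193 genes with Benjamini-Hochberg adjustment. Egr2 and Jun were higher in MBs and Arc was lower. These were 2 of 10 members higher, against 22.2% of all genes, and 1 lower, against 21.8%. The 7 others did not pass. The median difference of the members was 0.47, against 0.00 over all genes. Neither share exceeded that of all genes.

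Egr2 was at least 4.62 higher in MBs than in cerebellum (SE 0.609, limma adjusted p = 1.4e-04), and all 8 MBs exceeded both cerebellum samples. It was 4.52 without MB_706 (limma adjusted p = 3.3e-04). Jun was higher by 0.68 (SE 0.208, limma adjusted p = 0.0228), again with all 8 MBs above both cerebellum samples. Without MB_706 the Jun difference was 0.67 (limma adjusted p = 0.0364). The call for Jun was lost with the probe set of highest signal (difference 0.57, limma adjusted p = 0.0893), with array weights (0.63, limma adjusted p = 0.0537), without WC_2646, a cerebellum sample, (0.78, limma adjusted p = 0.0683) and without WC_2647, the other, (0.58, limma adjusted p = 0.174).

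Arc was lower in MBs, with a difference of -1.51, the MBs being at the floor (SE 0.0481, limma adjusted p = 5.5e-09). All 8 MBs were at the floor and both cerebellum samples above it, so the difference is a bound on its size. It was the same without MB_706 (limma adjusted p = 5.9e-08). Its small SE reflects values that are identical at the floor. Junb was 0.84 higher in MBs (SE 0.342, limma adjusted p = 0.0744), with all 8 MBs above both cerebellum samples, and it passed without MB_794 (0.92, limma adjusted p = 0.0478). Fos differed by 1.07 (SE 0.911, limma adjusted p = 0.443), with 5 of 8 MBs above both cerebellum samples and 1 below both. Egr1 differed by 0.44 (SE 0.878, limma adjusted p = 0.849), with 4 MBs above and 4 below. The spread between MBs exceeded both of these differences.

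Atf3 differed by 0.48 (limma adjusted p = 0.159), Egr3 by 0.46 (limma adjusted p = 0.269) and Fosb by 0.40 (limma adjusted p = 0.772). Npas4 was at -0.28 (limma adjusted p = 0.549), with 7 of 8 MBs below both cerebellum samples. Without MB_1187, the highest of them, the Npas4 difference was -0.42 (limma adjusted p = 0.0248). Both groups were close to the floor for Npas4, with 2.97 and 2.92 in cerebellum and a median of 2.50 in MBs. Leaving out MB_1187 also moved Egr1 to 0.11 and Fosb to 0.09. Egr1 was at 0.24 without MB_1224, Atf3 at 0.27 without WC_2646, Egr3 at 0.91 with its probe set of highest signal and Npas4 at -0.15 with quantile normalization, and none of these passed. Without MB_706 the members that had not passed were at 1.15 (Fos), 0.89 (Junb), 0.44 (Egr1), 0.46 (Atf3), 0.42 (Egr3), 0.46 (Fosb) and -0.30 (Npas4), and again none passed (limma adjusted p from 0.0712 to 0.865).

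**Figure D2:**
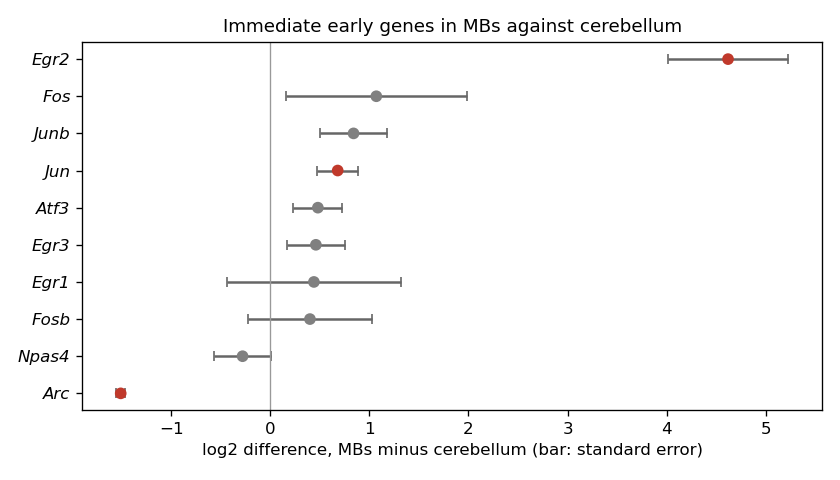
Log2 difference, MBs minus cerebellum (horizontal axis), for each member, with bars of 1 standard error from limma; red points passed the adjusted threshold of 0.05. Egr2 at 4.62 and Jun at 0.68 passed as higher and Arc at -1.51 as lower.

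The MBs differed among themselves. Fos was at 10.55, 10.41 and 10.07 in MB_1187, MB_1224 and MB_1206, and between 7.27 and 8.28 in the other 5. The gap of 1.79 between these sets made up 54.4% of the range. Egr1 was also highest in MB_1187, MB_1224 and MB_1206, at 12.47, 11.57 and 10.44, though the next, MB_706, was close at 10.19. Egr2 had another order, with 8.13 in MB_1187, 7.50 in MB_706 and 7.49 in MB_1197. Jun ranged by only 0.76 across the MBs, and Junb by 1.15. MB_1187 had the highest level of Fos, Fosb, Egr1, Egr2, Egr3 and Npas4, but not of Jun, Junb or Atf3. With Fos in 2 separate sets, no correlation with Fos was computed across the MBs.

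**Figure D3:**
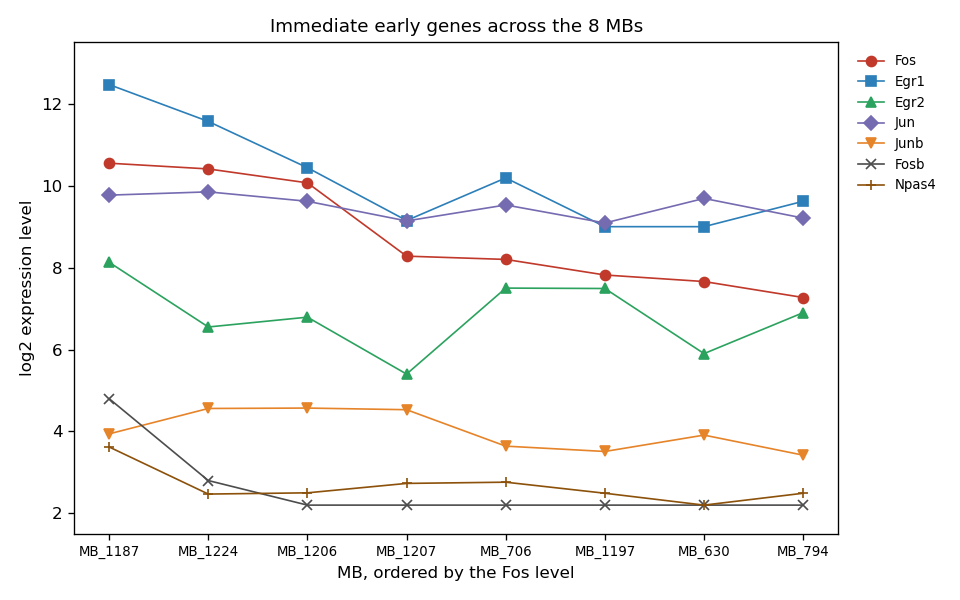
Log2 expression level (vertical axis) of 7 members in each of the 8 MBs, ordered from the highest to the lowest Fos level; lines join the values of 1 gene and carry no time order. Fos goes from 10.07 to 8.28 between MB_1206 and MB_1207, and MB_1187 is highest for Fos, Egr1, Egr2, Fosb and Npas4.

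Other genes of the rapid response were taken from a list of 50 with no member among them, which covers AP-1 and MAF relatives, EGR partners, NR4A receptors and further immediate early genes. This list and those below were chosen with earlier results of these data known. Their counts are therefore a description and not independent support. In GNPs against cerebellum, 20 of the 50 were higher by limma, against 14.9% of all genes, and 5 were lower, against 13.6%. In GNPs against MBs, 22 were higher, against 18.6% of all genes, and 9 were lower, against 18.7%. Without MB_706 the latter were 23 and 8 of the 50. These comparisons share the GNP samples. The median differences were 0.50 and 0.52, with 0.00 over all genes in both. In MBs against cerebellum, 13 were higher, against 22.2% of all genes, and 18 were lower, against 21.8%, with a median of 0.01. Both GNP samples stood above all 10 others for 19 of the 50 genes, against 11.7% of all genes, and below all for 2, against 8.68%.

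Of the relatives of the members, the NR4A nuclear receptors, which are induced along with FOS, were higher in GNPs in every case. Nr4a1 was at 9.40 and 9.74 in GNPs, 6.46 and 6.62 in cerebellum and 5.58 to 6.16 in MBs, a difference from cerebellum of 3.03 (SE 0.204, limma adjusted p = 3.1e-06). Nr4a2 was higher by 1.61 (limma adjusted p = 1.6e-05) and Nr4a3 by 1.82 (limma adjusted p = 2.8e-09). For Nr4a3 the MBs lay close to the floor, at 2.34 to 2.50 with an SD of 0.05, which lowers the shared spread. With the methods' t-test on GNPs and cerebellum alone, adjusted p was 0.0359 for Nr4a1, 0.0253 for Nr4a2 and 0.0194 for Nr4a3. All 3 receptors were also higher in GNPs than in MBs, by 3.68, 1.16 and 2.97. Fosl2, a late member of the FOS family, was at 6.62 and 6.52 in GNPs, 4.54 and 4.55 in cerebellum and 5.47 to 6.32 in MBs, and was higher by 2.03 (limma adjusted p = 1.4e-04). Jund, the least inducible of the JUN genes, was higher by 0.58 (limma adjusted p = 1.5e-04). With the probe set of highest signal alone the differences were 5.46 for Nr4a3, 3.88 for Fosl2 and 1.13 for Jund, so their sizes depend on how probe sets are averaged. Fosl1 and Egr4 were at the floor in all 12 samples.

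Further genes of the list with large differences included Klf6, a zinc finger factor, higher by 3.70 (SE 0.177, limma adjusted p = 2.3e-07), and Nfil3, a bZIP repressor, higher by 3.61 (SE 0.695, limma adjusted p = 0.00326). The GNP levels of Klf6 were 9.50 and 9.63, against 5.75 and 5.98 in cerebellum and 4.93 to 5.54 in MBs. Plk3, a stress-responsive kinase, was higher by 2.93, Maff, a small MAF protein, by 2.56, Tiparp, an ADP-ribosyltransferase, by 2.24 and Per1, a clock gene induced by CREB, by 1.82. The range of limma adjusted p over these 4 was 2.1e-05 to 0.00153. Each had both GNP samples above all others.

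The 5 lower genes were Nab2, Bhlhe40, Btg1, Klf2 and Zfp36l2. Nab2 encodes a corepressor that binds EGR proteins and is itself induced by them. It was at 2.44 and 2.88 in GNPs, 7.68 and 7.78 in cerebellum and 2.79 to 5.21 in MBs, a difference from cerebellum of -5.07 (SE 0.713, limma adjusted p = 4.8e-04). Egr1 and Nab2 were thus both below cerebellum in GNPs, where Fos and Npas4 were above it. Bhlhe40, a repressor of the clock, was lower, with a difference of -3.14 (SE 0.202, limma adjusted p = 2.2e-06). Btg1 was at -0.97, Klf2 at -0.76 and Zfp36l2 at -0.22, and Btg1 and Zfp36l2 passed in fewer of the alternatives (adjusted p up to 0.141 and 0.377). With the probe set of highest signal they were at -0.59 and -0.65, and Zfp36l2 was at -0.14 with arrays shifted to the same median.

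**Figure D4:**
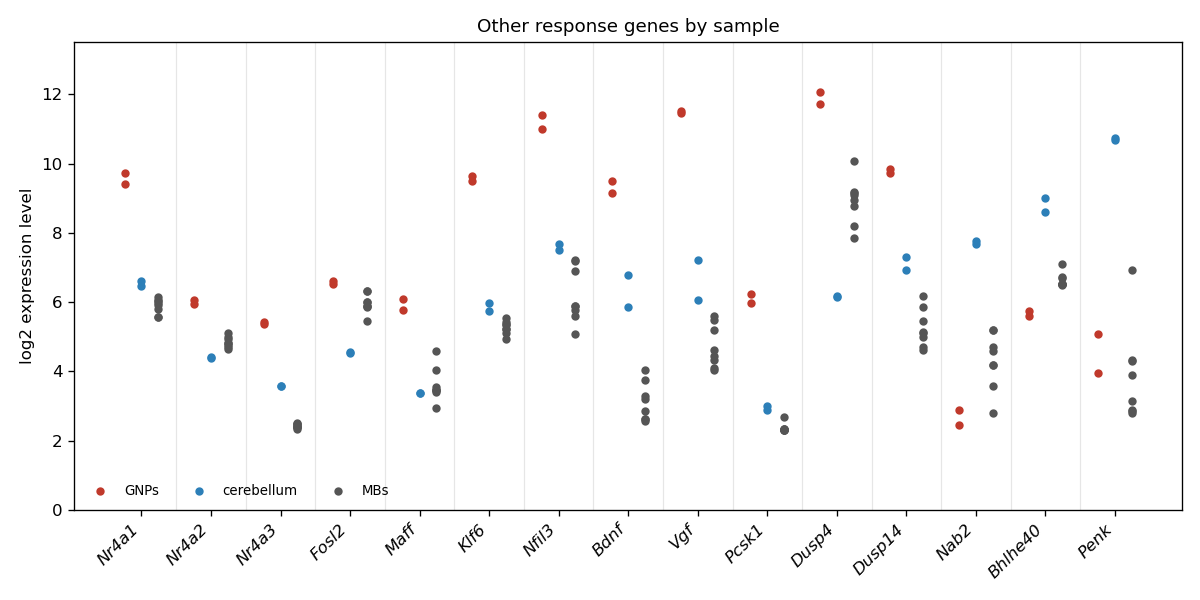
Log2 expression level (vertical axis) of 15 other response genes in the 2 GNP samples (red), the 2 cerebellum samples (blue) and the 8 MBs (grey), 1 point per sample. The first 12 genes are higher in GNPs than in cerebellum and Nab2, Bhlhe40 and Penk are lower, Bdnf having been chosen after its values were seen.

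Genes that carry out the response to neuronal activity were higher in GNPs in 8 of 12 cases and lower in 1 against cerebellum, and higher in 11 and lower in none against MBs, with median differences of 1.62 and 1.85. The shares of all genes to set beside this list and the next ones are 14.9% higher and 13.6% lower against cerebellum, and 18.6% and 18.7% against MBs. Vgf, a secreted neuropeptide precursor, was at 11.45 and 11.53 in GNPs, 6.05 and 7.21 in cerebellum and 4.04 to 5.60 in MBs. It was higher than cerebellum by 4.86 (SE 0.598, limma adjusted p = 2.0e-04), a call lost with the methods' t-test (adjusted p = 0.0602). Pcsk1, a protease that processes neuropeptides, was higher by 3.17 (limma adjusted p = 6.7e-08, 0.0297 with the methods' t-test). Its MB levels lay close to the floor, at 2.31 to 2.69. Bdnf, a neurotrophin induced by activity and here chosen after its values were seen, was at 9.16 and 9.51 in GNPs, 5.86 and 6.78 in cerebellum and 2.58 to 4.03 in MBs (difference from cerebellum 3.01, limma adjusted p = 0.00172). Penk, which encodes enkephalins, was the exception, with a difference of -6.20 (SE 1.22, limma adjusted p = 0.0037).

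Feedback inhibitors of MAP kinase signaling, which are induced by the pathway they restrain, had 4 of 13 higher and 1 lower against cerebellum, and 8 higher and 1 lower against MBs. Dusp4, a nuclear MAP kinase phosphatase, was at 12.06 and 11.72 in GNPs, 6.18 and 6.16 in cerebellum and 7.85 to 10.07 in MBs (difference from cerebellum 5.72, SE 0.583, limma adjusted p = 5.8e-05). Dusp14 was higher by 2.66 (limma adjusted p = 0.00224). Dusp2 was at -0.48 (limma adjusted p = 0.0267), which did not hold in 5 of the alternatives and was -0.23 without CGNP_2705. Of 22 upstream kinases and factors, 8 were higher and 4 lower against cerebellum, and 9 higher and 3 lower against MBs. Mef2c, a factor of activity-dependent transcription, was higher by 3.78 (limma adjusted p = 2.4e-04) and Rps6ka3, which encodes the kinase RSK2, by 1.86 (limma adjusted p = 3.0e-06). Camk4, a calcium-dependent kinase that acts on CREB, was lower, with a difference of -1.78 (limma adjusted p = 6.4e-04, 0.0616 with the methods' t-test, and -2.81 with the probe set of highest signal), as was Map2k1, which encodes MEK1, at -1.65 (limma adjusted p = 1.2e-05). The upstream list had median differences of 0.14 against cerebellum and 0.30 against MBs, with 0.00 over all genes. Its shares were 36.4% higher and 18.2% lower against cerebellum, and 40.9% and 13.6% against MBs.

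Stress genes were counted in 2 lists. Of 12 heat shock genes, 2 were higher and 1 lower in GNPs against cerebellum, and 3 were higher and 3 lower against MBs, with medians of -0.12 and 0.06 and counts near the shares of all genes. The mean of that list was 8.34 to 8.35 in GNPs, 8.40 to 8.55 in cerebellum and 7.82 to 8.80 in MBs. The called genes were Hsf2 (0.57), Dnaja1 (0.55) and Hspb1 (-1.87), and each lost its call in some alternatives, with adjusted p up to 0.221, 0.118 and 0.193. With the probe set of highest signal Hsf2 was at 1.13 and Dnaja1 at 0.86. Of 12 genes of the integrated stress response, 2 were higher and none lower against cerebellum, namely Ddit4 (1.32, limma adjusted p = 0.0104) and Slc7a11 (0.40, limma adjusted p = 3.3e-04), and 5 were higher against MBs. With the methods' t-test neither passed (adjusted p = 0.0623 and 0.153), and Slc7a11 was at 0.81 with its probe set of highest signal. Their median differences were 0.38 and 0.58.

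**Figure D5:**
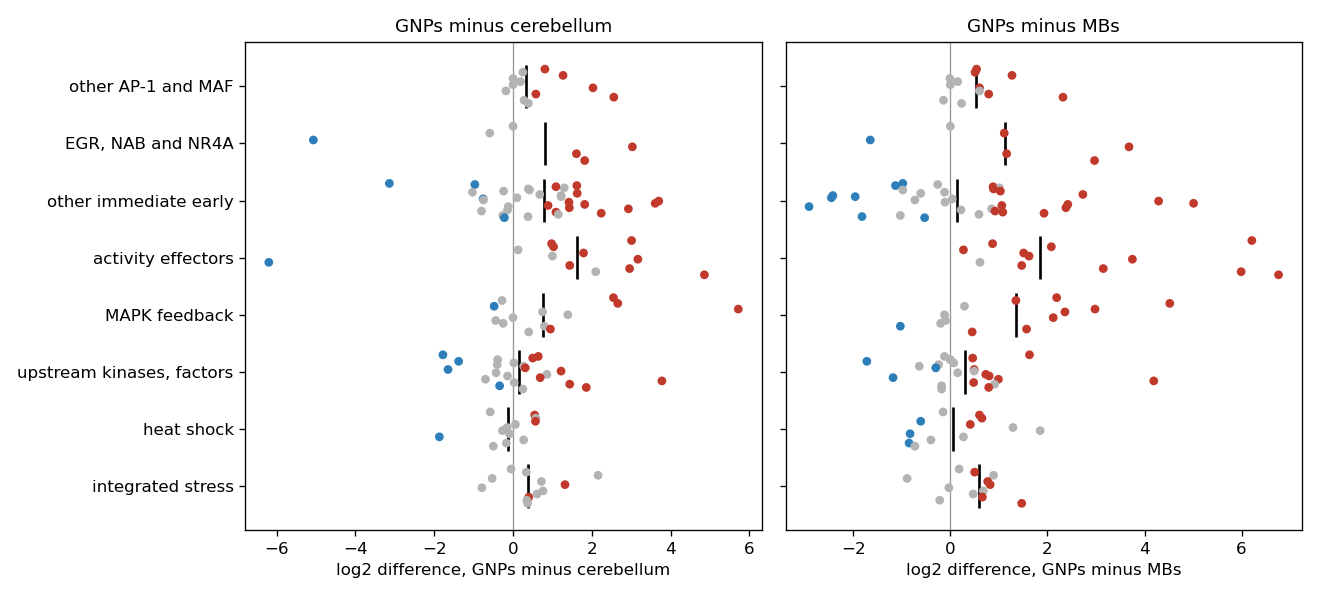
Log2 difference of each gene (1 point) in 8 lists, GNPs minus cerebellum on the left and GNPs minus MBs on the right; red points were higher and blue points lower in GNPs by limma at an adjusted threshold of 0.05, grey points did not pass, and black bars are list medians. The medians of the activity effectors are 1.62 and 1.85 and those of the heat shock list -0.12 and 0.06.

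Markers of other cell types also differed between the groups. The summed log2 level of 7 mesenchymal and mural markers was 44.0 to 45.3 in GNPs, 28.8 to 30.0 in cerebellum and 20.4 to 40.7 in MBs. In GNPs 3 of the 7 were higher than in cerebellum (Col1a1, Col1a2 and Col3a1) and 6 of 7 higher than in MBs, with Acta2 at the floor in all groups. Their part in the GNP levels of the immediate early genes was not tested. Of 6 astroglial markers, GNPs exceeded cerebellum for 1 (Gfap) and were lower for 2, with sums of 46.0 to 47.2, 53.0 to 53.6 and 29.2 to 45.4 in GNPs, cerebellum and MBs.

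Most other marker lists had lower sums in GNPs than in cerebellum. Microglial markers (9 genes) summed to 27.2 to 34.9 in GNPs, 43.4 to 43.9 in cerebellum and 48.0 to 59.4 in MBs. Endothelial markers (7 genes) summed to 17.9 to 18.3, 34.1 to 34.3 and 19.0 to 31.3, with Pecam1, Cdh5 and Tek at the floor in GNPs. Mature granule neuron markers (6 genes) summed to 40.6 to 41.4, 72.5 to 73.1 and 27.9 to 48.6, Purkinje cell markers (5 genes) to 19.4 to 19.9, 49.6 to 50.1 and 14.3 to 28.0, and oligodendrocyte markers (5 genes) to 23.1 to 30.2, 47.6 to 47.8 and 16.1 to 26.5. Both blood markers measured were at the floor in GNPs and MBs. Choroid plexus markers (3 genes) varied within groups, at 13.1 to 20.7 in GNPs and 10.1 to 26.1 in cerebellum. The part of these cell types in the levels of Egr2 and Arc, whose cerebellum values differed from the other groups, was not tested.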

How the data were processed

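Total RNA extracted with Trizol from 2 GNP samples, 2 samples of whole cerebellum and 8 MBs was hybridised to Affymetrix mouse expression arrays. Raw intensities were read with affy in R and normalised by GCRMA, an adjustment for probe affinity, by the authors, and the deposited values are on the log2 scale. Precision is limited by how few arrays there are.

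The 45101 probe sets included 64 controls, which were dropped. By the platform annotation 34945 named a single gene, 932 named several and 9160 none. A gene was the mean of its own probe sets, those with the suffixes s or x being used only for the 290 genes with no other, which gave 18193 genes. Tests used limma 3.58.1 in R 4.3.3 (lmFit and eBayes, 3 groups, two-sided, Benjamini-Hochberg over all genes, threshold 0.05). The methods' t-test was an alternative, as were other probe set rules, normalizations, weights, a robust trend, a level filter and leaving out each sample. In simulated data with 200 genes shifted by 1 and by 2 in log2, 28% and 71.5% were recovered for GNPs against cerebellum, 41.5% and 88.5% for GNPs against MBs, and 54% and 92% for MBs against cerebellum.

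Samples were grouped by the titles in their labels. Members and lists were chosen with earlier results of these data known. The named genes are the members, their family relatives, up to 8 genes of the rapid response list and up to 2 of each other list in each direction, the largest differences between GNPs and cerebellum among those past the test, and the 8 genes most like the mean of the members. Promoter windows came from RefSeq (GRCm38.p6).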

Additional observations from a re-analysis of the deposited data

Results flagged for a closer look

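In 8 MBs, a sample was marked where its gap to the nearest other exceeded 0.526 of the range (Dixon's 95% critical value). This held for 11 of 47 values tested, where chance marks about 1 in 20 of values that are not tied. In 2 of the 11, Fosb and Klf2, most MBs were at the floor and that rate does not apply. Fosb was 4.80 in MB_1187, with the next at 2.80. Npas4 was 3.62 in the same MB, with the next at 2.76. Pcsk1 was 2.69 there as well, with the next at 2.34. Plk3 was 5.14 in MB_630, the lowest, with the next at 6.05. Klf2 was 2.36 in MB_630, with the next at 2.23. Penk was 6.94 in MB_630, with the next at 4.32. Tiparp was 4.99 in MB_706, the lowest, with the next at 5.72. Per1 was 6.35 in MB_1207, with the next at 6.01. Bhlhe40 was 7.09 in MB_1206, with the next at 6.74. Btg1 was 9.50 in MB_1206, the lowest, with the next at 10.11. The 3′ minus 5′ control difference was 2.93 in MB_706, with the next at 0.82.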

How the results depend on the processing

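Of 206 recomputed differences of members between MBs and cerebellum, 200 kept their call, 4 lost it (all of Jun), 2 gained it (Junb without MB_794 and Npas4 without MB_1187) and none reversed. The number of members higher in MBs fell from 2 to 1 with the probe set of highest signal and with array weights, and the number lower from 1 to 0 where only genes above a log2 level of 5 in 2 samples were tested, a filter that keeps 6 members and drops Arc. Leaving out each sample in turn gave 2 to 4 members called, with 1 to 3 higher and 1 to 2 lower; it was 1 higher without either cerebellum sample, 3 without MB_794 and 2 lower without MB_1187.

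For the rapid response list in GNPs against cerebellum, the number lower went from 5 to 3 with the level filter, which tests 36 of the genes, and to 3 with the methods' t-test. Leaving out each sample gave 21 to 25 called, 17 to 20 higher and 4 to 5 lower. Against MBs it gave 24 to 33 called, 18 to 24 higher and 6 to 9 lower. Of 686 recomputed differences of the 33 other named genes between GNPs and cerebellum, 642 kept their call and 44 lost it, and none reversed. Where a sample left out leaves 1 in a group, that sample is assumed to vary like the other groups. Shifting the arrays to 1 median moved the median of all genes by 0.117 for GNPs minus MBs. The planned correlations with Fos across the MBs were not run, since Fos falls into 2 sets there. No paired analysis was possible because the groups share no replicate numbers. With 2 samples in each normal group, 28% of simulated shifts of 1 in log2 were found for GNPs against cerebellum. Only 200 of 18193 genes were shifted in that simulation. In the real data, limma called 14.9% of all genes higher and 13.6% lower for this comparison. The simulated shares are therefore not the recovery here. Levels at the floor have no order.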
